A study of Mus musculus with 4 samples.

Results

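Tubulin is the building block of the microtubules on which kinesin motors walk. The mRNAs of 10 mouse tubulin genes were followed in precipitates made with an anti-KIF5C antibody or with a control IgG. KIF5C is a heavy chain of the neuronal motor kinesin-1. The genes were picked by symbol: the alpha-tubulin genes Tuba1a, Tuba1b and Tuba4a, the beta-tubulin genes Tubb2a, Tubb2b, Tubb3, Tubb4a, Tubb4b and Tubb5, and the gamma-tubulin gene Tubg1. They are 10 of the 37411 gene rows of the deposited count table, and all 10 were among the 14357 genes that passed the low-count filter. The table holds another 10 tubulin genes, most of them scarce in these libraries.

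Hippocampi of mice 7 to 9 weeks old were the source, with no strain, sex, allele or treatment given in the labels used here. The KIF5C libraries (KIF5C 1 and KIF5C 2) hold RNA from precipitates with an anti-kinesin antibody, and the IgG libraries (IgG 1 and IgG 2) hold RNA from precipitates with a mouse control antibody. Every co-immunoprecipitation took tissue of 2 mice. In all, 6 co-immunoprecipitations were pooled into 2 samples, and whether this holds per antibody is not stated. Separate animals behind replicate libraries are not stated either, so each p-value measures the spread between 2 libraries a group, which may be technical. No input RNA was analysed here, so a difference means only that an mRNA took a larger or smaller part of the KIF5C precipitate than of the IgG precipitate.

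An alpha- and a beta-tubulin protein form the heterodimer that adds to microtubule ends, and gamma-tubulin sits in a ring complex that starts new microtubules. Neurons make several alpha and beta isotypes from separate genes, and the isotypes differ mainly in the acidic tail at the end of the protein, the site of many modifications read by motors. Cells also sense free tubulin: the factor TTC5 recognises the first residues of a nascent alpha- or beta-tubulin chain and leads to the decay of its mRNA when free tubulin is abundant.

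The starts of the 10 coding sequences are shown because TTC5 acts on what they encode. The first 30 bases of each, from ATG on, were read from the GENCODE mouse transcripts (GRCm38), 5′ to 3′ on the gene's own strand, with the first 4 codons in capitals.
Tuba1a: ATGCGTGAGTGCatctccatccatgttggc
Tuba1b: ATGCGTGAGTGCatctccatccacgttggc
Tuba4a: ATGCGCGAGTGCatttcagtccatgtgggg
Tubb2a: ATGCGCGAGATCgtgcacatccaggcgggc
Tubb2b: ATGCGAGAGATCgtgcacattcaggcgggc
Tubb3: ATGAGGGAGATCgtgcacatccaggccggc
Tubb4a: ATGCGGGAAATCgtgcacctgcaagccggt
Tubb4b: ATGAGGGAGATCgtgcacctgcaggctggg
Tubb5: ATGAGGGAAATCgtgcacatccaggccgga
Tubg1: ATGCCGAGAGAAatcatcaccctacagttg
The alpha and beta genes all open with ATG, an arginine codon (CGN, AGA or AGG), GAA or GAG, and then a cysteine codon (TGT or TGC) in the alpha genes or an isoleucine codon (ATT, ATC or ATA) in the beta genes. Read on the coding strand at the annotated start, this pattern was found in 17 of 21568 genes (0.0788%). Of these, 16 were alpha- or beta-tubulin genes, and the other, Gm49450, is annotated across Tuba1a and Tuba1b. Tubg1 opens differently and lacks the pattern.

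The ends of the coding sequences are shown for Tubb2a and Tubb2b, whose shared sequence matters to the counts, as the last 60 bases up to and including the stop codon. Capitals mark the bases that differ within the pair.
Tubb2a: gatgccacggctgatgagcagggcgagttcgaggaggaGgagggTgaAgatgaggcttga
Tubb2b: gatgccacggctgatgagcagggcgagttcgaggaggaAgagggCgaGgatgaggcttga
Over these 60 bases the pair differs at 3. Over the whole coding sequence, Tuba1a and Tuba1b are identical at 98.3% of aligned bases and Tubb2a and Tubb2b at 96.5%, while Tubg1 is identical to the other members at 48.7% to 51.9%.

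Shared sequence bears on how firmly a read can be given to a gene. Of all stretches of 31 bases in the principal transcript, 14.0% were unique to the gene in Tuba1b, 21.4% in Tuba1a, 29.6% in Tubb4b, 43.6% in Tubb2a, 48.2% in Tuba4a and 54.1% in Tubb2b. The share was 75.8% in Tubg1, 95.5% in Tubb5, 96.7% in Tubb3 and 98.1% in Tubb4a, so the counts of these 4 depend least on how reads were divided. Tuba1a and Tuba1b share sequence with each other, with Tuba1c and with the annotated gene AC157548.1, and Tubb4b with processed pseudogenes. AC157548.1 held 66.8% of the stretches of Tuba1b and 53.6% of those of Tuba1a, and Tuba1c held 64.5% and 54.7%. In Tuba4a the shared part (48.0%) is a stretch of its long 3′ untranslated region that Stk16, a kinase gene, holds on the opposite strand. Stk16 itself had 27.0 and 30.9 CPM in the KIF5C libraries and 27.5 and 30.0 CPM in the IgG libraries, and whether the counting used strand is not given in the sources used here.

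On GRCm38 the alpha genes Tuba1a (chr15:98949837-98953703) and Tuba1b (chr15:98931425-98934565) lie next to each other on the minus strand, and Tuba4a is at chr1:75214228-75219865, minus strand. Tubb2a (chr13:34074274-34078007) and Tubb2b (chr13:34126748-34130466) are likewise neighbours, both on the minus strand. Tubb4a (chr17:57080066-57087782), Tubb4b (chr2:25222160-25224702) and Tubb5 (chr17:35833921-35838306) are on the minus strand, and Tubb3 (chr8:123411424-123422015) and Tubg1 (chr11:101119938-101126419) on the plus strand. The alpha and beta members each have 4 exons in their principal transcript and Tubg1 has 11. Their coding sequences are close in length, 1335 to 1356 bases, while the 3′ untranslated region runs between 148 bases in Tubb4b and 1394 bases in Tuba4a.

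The libraries held 15172432 and 14623843 counts (KIF5C) and 12543510 and 11059266 counts (IgG). The mitochondrial rRNA gene mt-Rnr2 took 11.3% and 31.9% of the counts in the KIF5C libraries and 7.36% and 32.2% in the IgG libraries, so both libraries numbered 2 have fewer counts left for other genes. Levels are given below as CPM, counts relative to the library's total after TMM scaling, which sets the bulk of genes equal between libraries. Hippocampal markers were present: all 4 markers of neurons and all 5 of hippocampal excitatory neurons were tested, and no marker of any cell type looked at was at 0. Of 36 cell type markers, edgeR called Mog and Ttr lower in KIF5C and none higher. Over all genes tested, 0.745% were called lower and 3.33% higher. The lists of these 2 genes, oligodendrocyte and choroid plexus, each held markers higher and markers lower in KIF5C.

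Tubulin mRNAs were detected in both precipitates. Together the 9 alpha and beta genes took 0.264% and 0.184% of the counts in the KIF5C libraries and 0.302% and 0.122% in the IgG libraries. Per kilobase of principal transcript, Tubb2a (196 CPM per kb, mean of the 4 libraries) and Tuba1a (192) stood highest, and the order between them changed from library to library. Tubb5 (129), Tuba4a (115), Tubb4b (112), Tubb4a (102) and Tubb3 (102) followed with ranges that overlap from each to the next. Tubb2b (43.0), Tuba1b (30.6) and Tubg1 (8.54) came last, each below the one before it in all 4 libraries with no overlap of ranges.

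**Figure D1:**
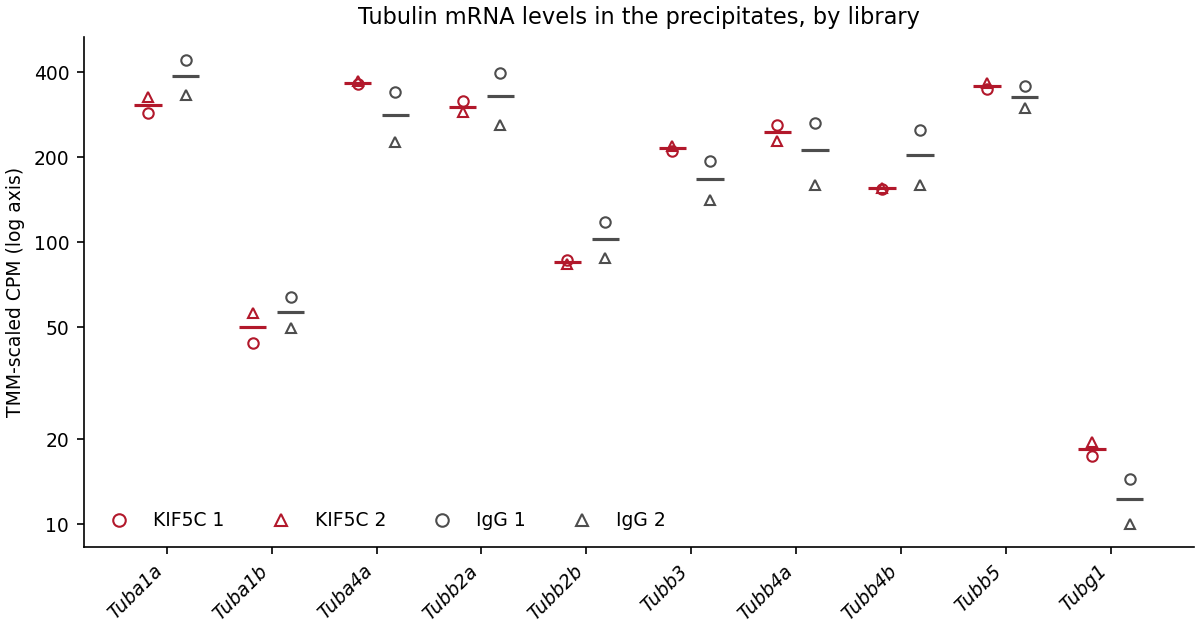
Level of each tubulin mRNA in TMM-scaled CPM on a log axis, with KIF5C libraries in red left of the IgG libraries in grey. Circles are libraries numbered 1, triangles libraries numbered 2, and bars the mean of 2 libraries. The KIF5C pair lies close together for most genes, and IgG 1 lies above IgG 2 for all 10.

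None of the 10 tubulin mRNAs differed between the precipitates in edgeR's quasi-likelihood test at a Benjamini-Hochberg adjusted p under 0.05. Over all 14357 genes tested, 3.33% were called higher in KIF5C and 0.745% lower. DESeq2 also called 0 of 10, against 4.37% higher and 1.04% lower over all genes. With limma-voom 0 of 10 were called, against 533 higher and 120 lower of the 14357 genes. At an unadjusted p under 0.05, edgeR had 1 of the 10, Tubg1, against 12.4% of all genes higher and 9.06% lower. At that threshold limma-voom had 1, against 1839 genes higher and 1317 lower of the 14357. DESeq2 had 0, against 1529 higher and 956 lower. The members' log2 fold changes (KIF5C over IgG) had a median of 0.00, against -0.03 over all genes tested, with 5 positive and 5 negative. Standard errors ran between 0.22 and 0.27, and the widest 95% bounds over the 10 genes were 0.526-fold and 2.11-fold. Differences beyond those bounds lie outside the members' own intervals, while smaller ones can go undetected with 2 libraries a group.

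Read by whether the groups overlap, the 10 split evenly in direction. Both KIF5C libraries lay above both IgG libraries for Tuba4a, Tubb3 and Tubg1, and below them for Tuba1a, Tubb2b and Tubb4b, and the groups overlapped for the other 4. Over all genes tested, 26.3% lay wholly above and 26.2% wholly below, so 3 of 10 on each side is near the background.

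Among the alpha genes, Tuba1a, the main alpha isotype of young neurons and a gene mutated in human lissencephaly, had 286 and 327 CPM in the KIF5C libraries and 442 and 331 CPM in the IgG libraries. Both KIF5C values were below both IgG values, though KIF5C 2 and IgG 2 have counting intervals that overlap. The log2 fold change was -0.34 (SE 0.26, adjusted p = 0.475). Tuba1b, an isotype made in most cell types, had 44.1 and 56.0 CPM in the KIF5C libraries and 63.9 and 49.5 CPM in the IgG libraries, and the groups overlapped (-0.19, SE 0.22, adjusted p = 0.673). Tuba4a went the other way, with 362 and 372 CPM in the KIF5C libraries and 340 and 226 CPM in the IgG libraries. Its KIF5C libraries lay close together and above both IgG libraries, of which IgG 2 was the lower by far (0.38, SE 0.26, adjusted p = 0.431).

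Among the beta genes, neither of the near-identical pair Tubb2a and Tubb2b passed the test. Tubb2a, a major neuronal beta isotype, had 316 and 288 CPM in the KIF5C libraries and 398 and 259 CPM in the IgG libraries, with KIF5C inside the IgG range (-0.12, SE 0.27, adjusted p = 0.830). Tubb2b, mutated in human cortical malformations, had 86.3 and 83.6 CPM in the KIF5C libraries and 118 and 87.9 CPM in the IgG libraries. Both KIF5C values were below both IgG values (-0.27, SE 0.22, adjusted p = 0.504), though their counting intervals overlap that of IgG 2. Tubb3 is the neuron-specific beta isotype widely used as a neuronal marker. It had 210 and 220 CPM in the KIF5C libraries and 193 and 141 CPM in the IgG libraries, KIF5C above in both (0.36, SE 0.24, adjusted p = 0.402). The 4 neuron markers summed to 2194 and 2067 CPM in the KIF5C libraries and 1673 and 1732 CPM in the IgG libraries. Of the 4, 3 were higher in KIF5C, 0 were called and none was at 0. The markers were uneven, with log2 fold changes of 0.81 for Snap25, 0.58 for Rbfox3, 0.12 for Syt1 and -0.07 for Eno2. Snap25 had 874 and 922 CPM in the KIF5C libraries and 420 and 602 CPM in the IgG libraries. For Syt1 and Eno2 the groups overlapped. The part of neuronal RNA in the Tubb3 values was not tested. In pooled tissue the number of cells of a type and the RNA per cell cannot be told apart.

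Tubb4a, a brain isotype prominent in oligodendrocytes and mutated in a human hypomyelination disorder, had 260 and 229 CPM in the KIF5C libraries and 264 and 159 CPM in the IgG libraries. The groups overlapped (0.21, SE 0.27, adjusted p = 0.689), and the 6 oligodendrocyte markers summed to 1661 and 1764 CPM in the KIF5C libraries and 1947 and 1915 CPM in the IgG libraries, with none at 0. Mog was called lower (-0.82, SE 0.21, adjusted p = 0.0380), and the part of oligodendrocyte RNA in the Tubb4a values was not tested. Tubb4b, a widely made isotype also used in cilia, had 154 and 156 CPM in the KIF5C libraries and 249 and 159 CPM in the IgG libraries. Its KIF5C libraries were both below, KIF5C 2 and IgG 2 by little, and its log2 fold change was the lowest of the 10 (-0.40, SE 0.25, 95% interval -0.93 to 0.13, adjusted p = 0.375). It was -0.036 without IgG 1, where Tuba1a at -0.11 and Tubb2b at -0.047 lay lower, and -0.67 without IgG 2. Tubb5, a general isotype needed for brain growth, had 350 and 366 CPM in the KIF5C libraries and 358 and 297 CPM in the IgG libraries, with overlap (0.13, SE 0.25, adjusted p = 0.811).

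Tubg1, the widely made gamma-tubulin gene, had the highest log2 fold change of the 10 and the fewest reads. It had 337 and 252 counts in the KIF5C libraries and 227 and 79 counts in the IgG libraries, or 17.4 and 19.6 CPM in KIF5C and 14.5 and 10.05 CPM in IgG. All KIF5C values were above all IgG values, and the IgG libraries differed from each other by more than the KIF5C libraries did. The log2 fold change was 0.57 (SE 0.24, 95% interval 0.06 to 1.08), with an adjusted p of 0.183 in edgeR. Without IgG 1 it was 0.88 with an adjusted p of 0.0390, a call made against IgG 2 alone while 6.56% of all genes were called higher. Without IgG 2 it was 0.36 with an adjusted p of 0.440. The adjusted p ran between 0.0390 and 1.00 over 12 alternatives, and this was the only call of any member in them.

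**Figure D2:**
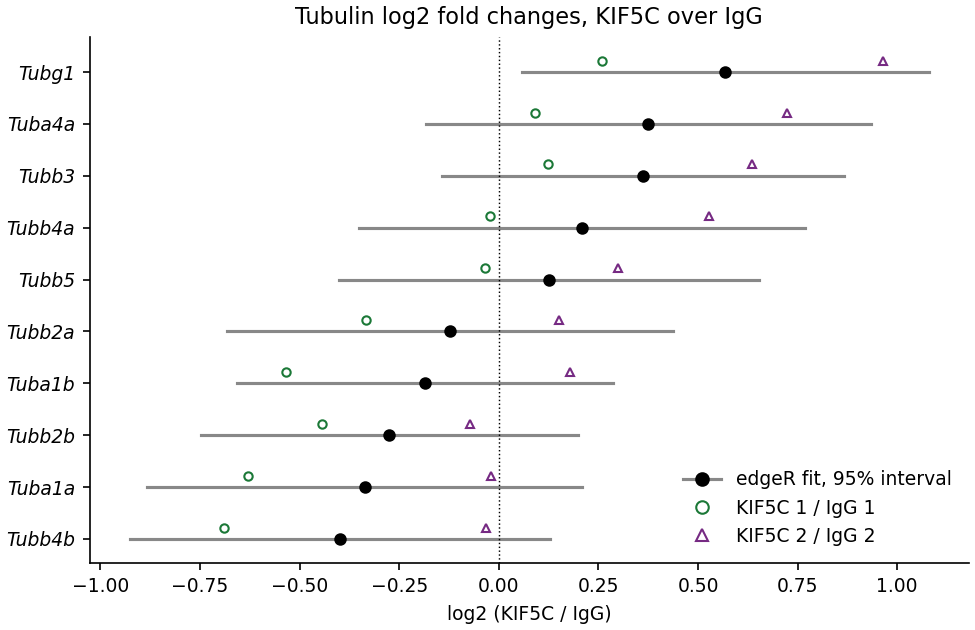
Log2 fold change (KIF5C over IgG) of each tubulin gene, with the edgeR estimate and its 95% interval in black and grey and the ratios of same-numbered libraries as open circles (number 1) and triangles (number 2). Tubg1 alone has an interval clear of 0 before adjustment, and for every gene the ratio of the libraries numbered 2 lies right of that of the libraries numbered 1.

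Between the IgG libraries, but not between the KIF5C libraries, the members all differed the same way. All 10 had a higher level in IgG 1 than in IgG 2, by 1.20-fold to 1.66-fold, against 49.7% of all genes tested. The 5 other tubulin genes tested were lower in IgG 1 than in IgG 2, so this was not shared across the family. Their ratios of IgG 1 to IgG 2 were 0.58 for Tuba1c, 0.92 for Tuba8, 0.77 for Tubd1, 0.50 for Tube1 and 0.90 for Tubg2. In the KIF5C libraries 3 of the 10 members were higher in KIF5C 1 than in KIF5C 2, against 49.0% of all genes. The ratio to IgG, which takes in the differences within both groups, depended on the library number. Among the libraries numbered 1, 3 of 10 members had KIF5C above IgG (median log2 ratio -0.18). Among those numbered 2, 7 of 10 did (0.24). The medians over all genes were -0.02 and 0.00. For Tubb4a the ratio was -0.02 for number 1 and 0.53 for number 2, for Tubb2a it was -0.33 and 0.15, and for Tuba1b -0.54 and 0.18. The mt-Rnr2 share also differed by library number, as given above, and its part in these values was not tested.

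Summed over the genes of a class, the KIF5C values of tubulin mRNA lay inside the range of the IgG libraries. The 3 alpha genes summed to 692 and 755 CPM in the KIF5C libraries and 846 and 606 CPM in the IgG libraries (log2 -0.01), and 0.060 with plain library totals, a scaling that moved the median of all genes by 0.14. The 6 beta genes summed to 1377 and 1342 CPM in the KIF5C libraries and 1580 and 1104 CPM in the IgG libraries (0.02). Together the 9 genes gave 2070 and 2097 CPM in the KIF5C libraries and 2426 and 1710 CPM in the IgG libraries, a mean ratio of 1.01. A two-sided exact permutation test gave p = 1.00 for each of the 3 sums, where 2 libraries against 2 cannot go below 0.33. Taken by number, the sum of the 9 was lower in KIF5C 1 than in IgG 1 (log2 -0.23) and higher in KIF5C 2 than in IgG 2 (0.29).

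The mix of isotypes is a separate measure from the sums. A share within a class uses counts of a single library, so scaling between libraries and the mt-Rnr2 share drop out of it. Per kilobase, Tuba4a made up 41.0% and 38.1% of the alpha level in the KIF5C libraries and 29.8% and 27.3% in the IgG libraries, a difference of 10.98 percentage points. Tuba1a made up 50.9% and 52.6% in the KIF5C libraries and 61.0% and 63.0% in the IgG libraries, a difference of -10.3 points. The groups did not overlap for either gene. Tuba1b held 8.12% and 9.32% in the KIF5C libraries and 9.13% and 9.74% in the IgG libraries, with overlap.

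Of plain alpha counts, Tuba4a held 52.3% (95% Wilson interval 51.5% to 53.2%) in KIF5C 1 and 49.3% (48.3% to 50.3%) in KIF5C 2, against 40.2% (39.4% to 41.1%) in IgG 1 and 37.2% (35.9% to 38.6%) in IgG 2. These intervals cover counting error only. The interval of each KIF5C library lies clear of both IgG libraries, and the libraries of an antibody also differ from each other by more than counting error. Stk16, which overlaps the end of Tuba4a, differed by 0.01 on the log2 scale (SE 0.22, adjusted p = 0.982). Its part in the Tuba4a counts was not tested.

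In the beta class, Tubb3 held 16.2% and 17.5% in KIF5C and 12.7% and 13.5% in IgG. Tubb4a held 16.8% and 15.3% in KIF5C and 14.6% and 12.7% in IgG. Tubb4b went the other way, with 13.9% and 14.5% in KIF5C and 19.1% and 17.8% in IgG, the largest difference in the class at -4.26 points. Tubb2a (28.3% and 26.6% in KIF5C, 30.4% and 28.8% in IgG) and Tubb2b (5.70% and 5.69% in KIF5C, 6.62% and 7.19% in IgG) were also lower without overlap, and Tubb5 overlapped. Each of the 7 shares without overlap had p = 0.33 in a two-sided exact permutation test, the smallest that 2 against 2 allows, so none can pass a threshold of 0.05. Shares within a class sum to 100% and are not independent of each other. No background of such shares over other sets of genes was computed, so the 7 without overlap are a description.

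**Figure D3:**
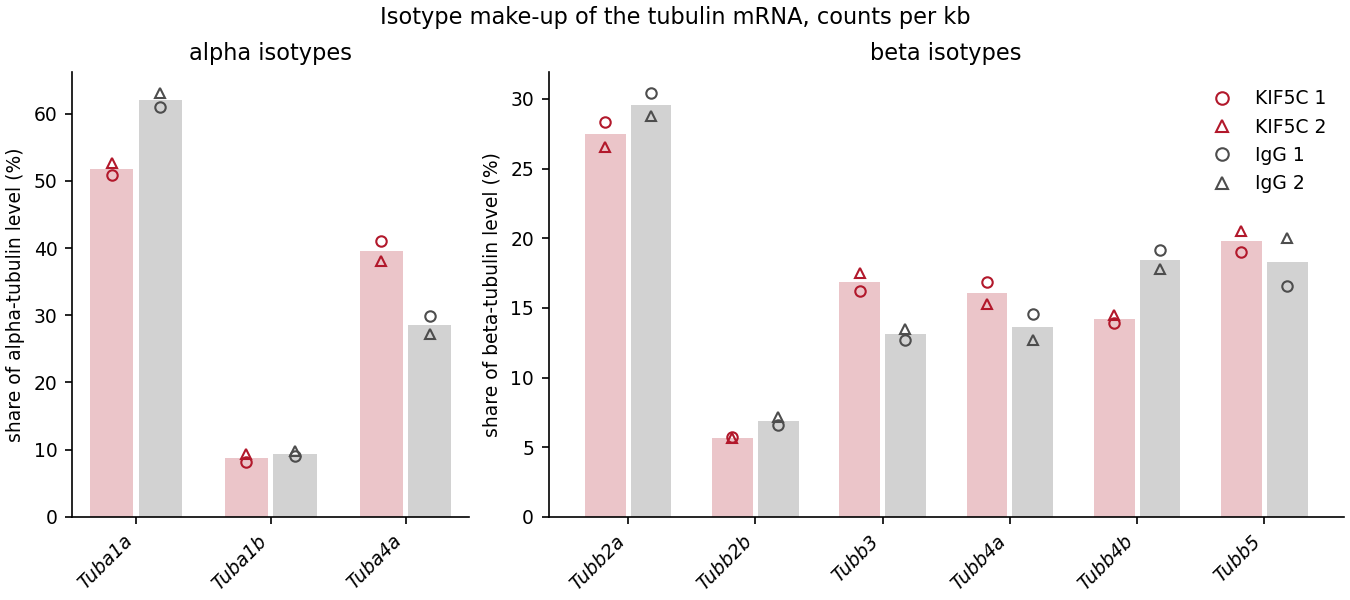
Share of each isotype in the alpha (left) and beta (right) tubulin level, in percent of counts per kilobase, for the KIF5C libraries (red) and the IgG libraries (grey). Bars are means of 2 libraries and symbols single libraries. Tuba4a and Tubb3 stand higher in both KIF5C libraries, and Tuba1a and Tubb4b lower.

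Ratios of member to member need no scaling either. Tuba1a over Tuba4a was 0.789 and 0.877 in the KIF5C libraries and 1.30 and 1.47 in the IgG libraries. Tuba1a over Tubg1 was 16.4 and 16.7 in the KIF5C libraries and 30.4 and 33.0 in the IgG libraries, and Tubb4b over Tubg1 was 8.87 and 7.94 in the KIF5C libraries and 17.1 and 15.8 in the IgG libraries. By contrast, Tuba4a over Tubb3 was 1.72 and 1.69 in the KIF5C libraries and 1.76 and 1.60 in the IgG libraries, so the groups overlapped for this pair. Of the 45 pairs of members, 32 (71.1%) had ratios that did not overlap between the antibodies, against 51.0% of all pairs of tested genes with counts in every library. The 45 pairs reuse 10 genes, so they are a description.

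The other tubulin genes added no call. Tubg2, the second gamma-tubulin gene, shares 23.6% of its 31-base stretches with Tubg1 and had 15.6 and 16.4 CPM in the KIF5C libraries and 11.1 and 12.3 CPM in the IgG libraries. Its groups did not overlap, in the same direction as Tubg1 (0.45, SE 0.23, adjusted p = 0.266). Tuba8 had 5.57 and 6.22 CPM in the KIF5C libraries and 5.50 and 5.98 CPM in the IgG libraries (0.04). Tubd1 and Tube1, the delta- and epsilon-tubulins of centrioles, differed by -0.61 (SE 0.31, adjusted p = 0.272) and 1.29 (SE 0.59, adjusted p = 0.212). Tube1 rested on 24 counts in each KIF5C library and 7 in each IgG library. Tuba1c, with 6 to 15 counts a library, differed by -1.32 (SE 0.61, adjusted p = 0.222). Tubb1, Tubb6 and Tuba3a had at most 5 counts in a library and were not tested, and Tuba3b and Tubal3 were at 0 in all 4.

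Genes whose products act on tubulin were looked at in 6 lists, the other tubulins included, with 86 of 96 genes tested. Of the 86, 4 were higher (4.65%) and 2 lower (2.33%) in KIF5C by edgeR, against the 3.33% and 0.745% of all genes, and the median log2 fold change was -0.08. The counts called moved with the libraries used, both in these lists and over all genes. In the folding list, 21 genes of the CCT ring, prefoldin and the tubulin cofactors, 1 was higher and 1 lower. Cct7, a CCT subunit, had 140 and 147 CPM in the KIF5C libraries and 78.5 and 82.9 CPM in the IgG libraries (0.83, SE 0.22, adjusted p = 0.0412). Tbce, a cofactor that handles alpha-tubulin, had 22.2 and 20.2 CPM in the KIF5C libraries and 39.5 and 35.1 CPM in the IgG libraries (-0.82, SE 0.22, adjusted p = 0.0447). Their products serve the same folding route while their mRNAs lay on opposite sides.

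Among 18 tested genes of gamma-tubulin complexes and their anchors, Pcnt alone was called. Pericentrin, its product, holds gamma-tubulin rings at the centrosome. Pcnt had 26.5 and 21.1 CPM in the KIF5C libraries and 11.97 and 11.6 CPM in the IgG libraries (1.02, SE 0.23, adjusted p = 0.0220). Of 19 enzymes that modify tubulin, Ttll1, a polyglutamylase, was higher, with 15.6 and 12.7 CPM in KIF5C and 7.74 and 6.36 CPM in IgG (0.99, SE 0.25, adjusted p = 0.0377). Agbl3, a carboxypeptidase that trims glutamates, was lower, with 4.08 and 3.73 CPM in KIF5C and 9.02 and 8.39 CPM in IgG (-1.16, SE 0.28, adjusted p = 0.0308). Ttll1 adds and Agbl3 removes glutamates on tubulin tails.

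Of 13 severing and depolymerising genes, Stmn1 was called. Stathmin 1 binds free tubulin dimers and keeps them from assembling. Stmn1 had 34.0 and 38.9 CPM in the KIF5C libraries and 11.3 and 20.2 CPM in the IgG libraries (1.23, SE 0.26, adjusted p = 0.0172). It passed the threshold under 11 of 12 alternatives, more than any of the other 5, and failed with plain library totals, while 42.6% of its 31-base stretches occur in other genes. With each library left out in turn, Stmn1 was called in all 4 fits, Pcnt and Ttll1 in 2, and Cct7, Tbce and Agbl3 in 1. With GC and length offsets Pcnt was at 0.62 (edgeR, adjusted p = 0.0948) and Tbce at -0.62 (adjusted p = 0.0958), neither past the threshold, and with library totals none of the 6 was called. None of the 10 tested genes of tubulin mRNA autoregulation was called, and Ttc5, named for its role, had 26.8 and 31.6 CPM in KIF5C and 43.4 and 34.0 CPM in IgG (-0.41, adjusted p = 0.303).

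**Figure D4:**
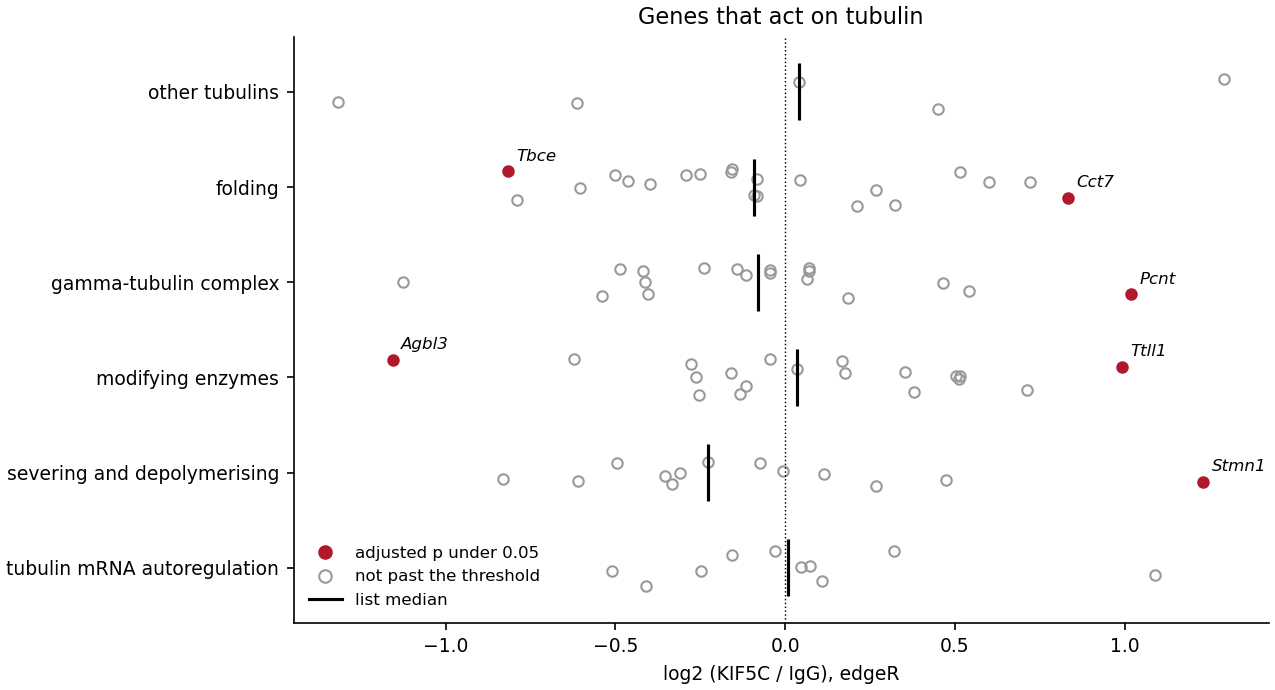
Log2 fold change (KIF5C over IgG, edgeR) of the 86 tested genes that act on tubulin, 1 row a list, with red points past an adjusted p of 0.05, grey circles not past it, and a black bar at each list's median. Points lie on both sides of 0 in every list, and the 6 called genes are spread over 4 lists and both directions.

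For Tubg1, the member with the smallest p, the genes most like it over the 4 libraries were sought among 4812 protein-coding genes of similar abundance, by the root mean square difference of centred log2 CPM. Ulk3, a kinase gene, had 9.65 and 10.6 CPM in the KIF5C libraries and 7.94 and 5.47 CPM in the IgG libraries (difference 0.011). Slc13a4, a sulfate transporter gene, followed at 0.028 and Akap1, which encodes a mitochondrial anchor protein for kinases, at 0.034. None of the 3 was past the threshold. They were chosen for likeness to Tubg1, itself not called, in these same libraries, so this is a description.

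In the authors' deposited table, 0 of the 10 members had an adjusted p under 0.05, against 6.90% of all genes with one. Its log2 values were read as IgG over KIF5C because 98.3% of 14335 genes had the opposite sign to the fold change computed here from the same counts. The name of that comparison, IP versus control, would read the other way, as KIF5C over IgG. The groups used here follow the library titles. Signs alone cannot tell a reversed ratio from exchanged library labels. The authors' deposited table gave Tubg1 -0.49 with an adjusted p of 0.266, Tuba4a -0.35, Tubb3 -0.34, Tubb4b 0.34 and Tuba1a 0.29.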

How the data were processed

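Precipitated hippocampal RNA was sequenced as 2 KIF5C and 2 IgG libraries, grouped by the labels. The authors deposited whole-number read counts per gene, not normalized. Salmon, DESeq and GRCm38 are named per the submitters' processing notes, with no versions or roles. Salmon divides reads between similar transcripts, which touches the near-identical tubulin pairs. In a further table the authors deposited their own comparison: per the file headers it holds a log2 fold change with its standard error, p-values, a test score, a linear fold and a mean level, a signal value not used here.

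A quasi-likelihood F test was run on the counts in edgeR 4.0.16 (R 4.3.3) after TMM scaling. Genes were kept by filterByExpr with a minimum count of 10 and a minimum total of 15, and the model held the antibody alone. P-values were adjusted by the Benjamini-Hochberg method over the 14357 genes kept. The standard error (SE) is the fold change divided by the square root of F. Single sums and shares were compared with two-sided exact permutation tests. Alternatives were DESeq2 1.42.0, limma-voom (limma 3.58.1), other scalings and filters, GC and length offsets, a replicate block and leaving out each library. GENCODE mouse release 21 (GRCm38) gave transcripts, with the APPRIS principal transcript standing for a gene. Sequence sharing was counted as 31-base stretches found in any other gene's transcripts, on either strand.

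The members and gene lists were chosen with earlier results of these data known. The text names all 10 members, all other tubulin genes, up to 5 called genes of each list and the 3 genes most like the member with the smallest p.

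Replicate numbers are not said to mark shared animals or days, and only 2 pairs exist, so the libraries were not treated as paired. Some sequence of the members is not reported here.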

Additional observations from a re-analysis of the deposited data

How the results depend on the processing

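In all 12 other fits 0 of the 10 members were called lower, and 0 were called higher except without IgG 1, so leaving out a library gave 0 to 1. Fold changes kept their sign in every fit except 3, all with a library left out: Tuba1b ran between -0.35 and 0.015, Tubb2a between -0.39 and 0.22 and Tubb4a between -0.10 and 0.62. In each the change of sign came with an IgG library left out. The Tubb5 share difference ran between -0.28 and 3.17 points. The alpha sum was 0.060 with library totals and 0.32 from the libraries numbered 2 alone, and ran between -0.23 and 0.25 with a library left out. The beta sum was -0.20 from the libraries numbered 1 alone and ran between -0.22 and 0.30. The sum of both was -0.23 from the libraries numbered 1 alone and ran between -0.22 and 0.28. The comparisons by library number were added after seeing the data. Of the lists of genes acting on tubulin, 1 to 5 members were called higher and 0 to 6 lower with a library left out, the 6 without IgG 1 and 0 without any of the other 3. Where a single library remained in a group, it was assumed to vary like the others. The causes were not tested. Over all genes, the counts called higher and lower were 478 and 107, and at the extremes 1 and 4 with library totals, 902 and 261 with no low-count filter, 978 and 586 without IgG 1 and 116 and 27 without KIF5C 1.

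With the replicate block, 0 members were called, 8 list members were called higher in place of 4 and 3 lower in place of 2, and the counts over all genes were 1162 and 517. Deviations of same-numbered libraries correlated at 0.14 over genes, and with only 2 pairs and no label on what a number shares, the numbers are not shown to pair the libraries. Depth limits Tubg1 most: its 79 counts in IgG 2 leave a 95% Poisson interval of 7.95 to 12.5 CPM.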
